A study of Caenorhabditis elegans with 12 samples.

Results

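The genes described here are 100 genes of Caenorhabditis elegans that have no gene symbol in the deposited table and that were the most strongly higher after RNA interference (RNAi) of y54g2a.18. They were drawn from 18550 genes listed by sequence name, out of 46891 genes in the table. Genes of the clones Y54G2A, C13A2, Y6G8, F26F2 and B0284 and the gene F22B5.4 were not eligible. A sequence name, such as C33G8.13, gives the genomic clone on which a gene was first predicted and a running number. The choice used the measured values: a gene had to average at least 1 CPM (its counts scaled to a library total of 1000000) in the RNAi libraries, each RNAi library had to lie above each control library, and the 100 highest log2 ratios of mean CPM were kept after adding 0.1 CPM to both means. Of the 18550 genes 5521 reached the level and 1188 met both conditions; of all 14290 genes tested below, with or without a symbol, 16.9% had each RNAi library above each control library. The size and direction of the differences below are therefore a description of chosen genes, with no test.

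The series sequenced polyadenylated RNA of whole worms of the wild-type N2 strain. The groups used here are worms after RNAi of y54g2a.18, the worm homologue of BCAP31, and worms given the RNAi control of that experiment, with 3 libraries each; no age, stage or sex of the worms and no content of the control RNAi could be taken from the labels. A second experiment of the same size silenced rpoa-49, and it was not tested because its table holds only 418 counts in all and lists other gene names. Separate cultures are not stated for the libraries, so the p-values below rest on a spread between samples that may be technical. The RNAi libraries held 37336711, 38313344 and 30103422 counts, and the control libraries 38919451, 39492584 and 34561881.

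BCAP31 is a membrane protein of the endoplasmic reticulum that takes part in the export and quality control of newly made proteins. In C. elegans a gene usually receives a symbol when a mutant, a protein family or a biochemical role has been described, so genes known by sequence name are mostly those whose role is not described in the annotation. RefSeq now gives symbols to 6 of the 100 genes: gtnt-36 for K08D9.6, gtnt-35 for K08D9.2, gtnt-21 for F07G11.4, nssp-49 for F13E9.15, pugs-5 for R07B1.8 and mbug-1 for F55G11.4. The reference tables used here assign no function to any of the 100, and none is stated below.

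The targeted gene was checked first. Y54G2A.18 had 186, 125 and 96.3 CPM in the RNAi libraries, against 388, 364 and 395 CPM in the control libraries. Each RNAi library lay below each control library. The fitted log2 fold change of -1.51 had a standard error of 0.25 (adjusted p = 0.00732, edgeR's quasi-likelihood test with Benjamini-Hochberg adjustment across the whole fit). Exons of Y54G2A.18 overlap those of dib-1 on the opposite strand, and strand-specific counting is not stated. Reads of dib-1 may therefore be among the counts of Y54G2A.18. Of 24 markers of 8 tissues, 19 averaged over 1 CPM over the 6 libraries, 2 (unc-119 and rab-3, of neurons) lay between 0 and 1 CPM, and 3 were at 0 in every library: ifb-2 of the intestine, tnt-4 of the pharynx and the adult epidermal collagen col-19. Genes with several transcripts were often at 0: 47.2% of 4764 RefSeq genes with 2 or more transcripts had no count in any library, against 6.85% of 15163 genes with 1 transcript. Of the 100 genes 93 have 1 RefSeq transcript and 6 have more (E04D5.4, ZK185.4, Y105C5A.13, T11B7.2, R07B1.8 and K04F1.9), and for these 6 the counts may be partial.

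Together the 100 genes made up 4001, 3362 and 4508 CPM in the RNAi libraries and 878, 872 and 912 CPM in the control libraries. In whole worms a change in the number of cells of a type and a change in RNA per cell cannot be told apart. The log2 ratios ran from 6.61 to 1.52 with a median of 2.15. The order of the highest depends on the amount added: with 1 CPM in place of 0.1 CPM the ratio was 4.61 for ZK105.1, 3.70 for C33G8.13 and 1.86 for T07G12.3, and with 0.01 CPM it was 4.71, 8.35 and 8.04. More than 16-fold higher were 8 genes, more than 8-fold 22 and more than 4-fold 56. The last genes taken were F49H12.2, F09C12.2 and C54E10.11, each at 1.52, and the first left out were F35F10.6 at 1.499, T28A11.4 at 1.4954 and F48C1.9 at 1.4953. A further 13 sequence-named genes were past that ratio but had RNAi and control libraries that overlapped. Without the restriction to sequence names 204 genes of the table met the conditions at this ratio, of which 5 were on clones that were not eligible and 99 carried symbols, among them 19 col collagens, 6 grl, 6 nspc, 6 pals and 5 clec genes.

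**Figure D1:**
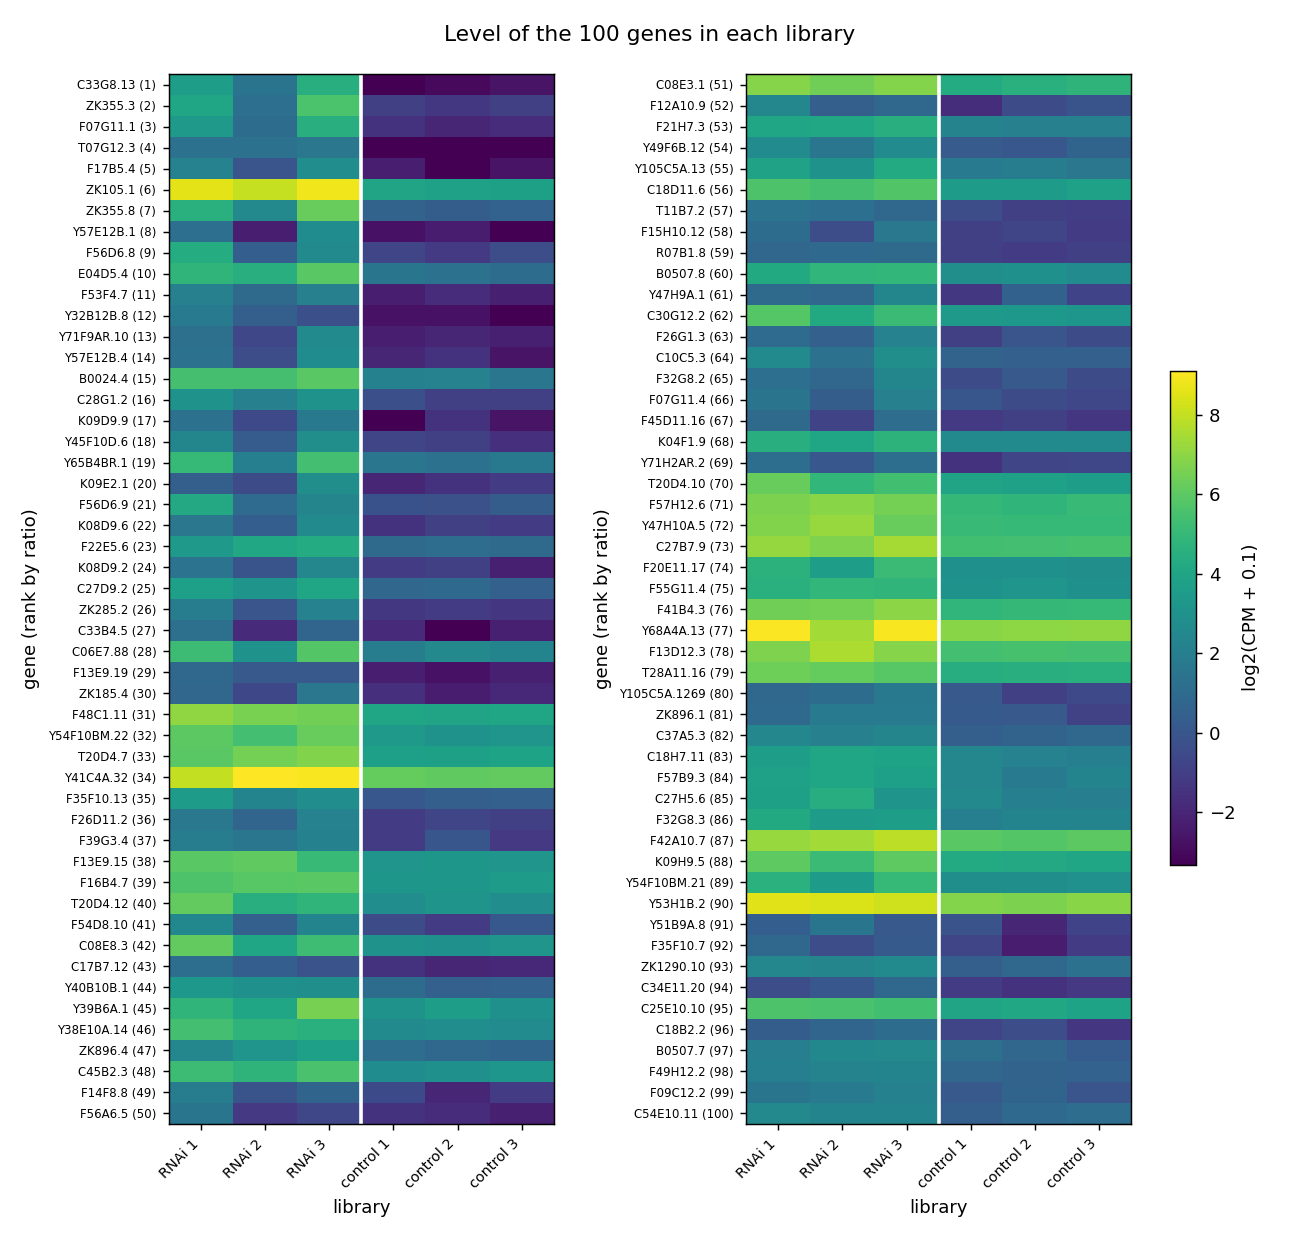
Each row is a gene, ordered by its log2 ratio with its rank in brackets, and each column a library, the RNAi libraries left of the white line and the controls right of it; colour shows log2(CPM + 0.1). The control columns are darker in every row by the rule that chose the genes, and in many of the first 50 rows RNAi 2 is darker than RNAi 1 and RNAi 3.

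In the edgeR fit of all genes 98 of the 100 passed the filter on low counts, and 92 of them were called higher at an adjusted p of 0.05, against 3.97% of all 14290 tested genes and 4.2% of the tested genes with sequence names. In either direction 8.98% of all tested genes were called. The same contrast chose the genes, so nothing is read from this count. DESeq2 called all 100, against 5.01% of the genes to which it gave an adjusted p. Y57E12B.1 and C33B4.5 were not tested in edgeR, and F14F8.8, F56A6.5, F12A10.9, Y47H9A.1, Y51B9A.8 and F35F10.7 were tested and not called. The 6 uncalled genes averaged under 3 CPM after RNAi.

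**Figure D2:**
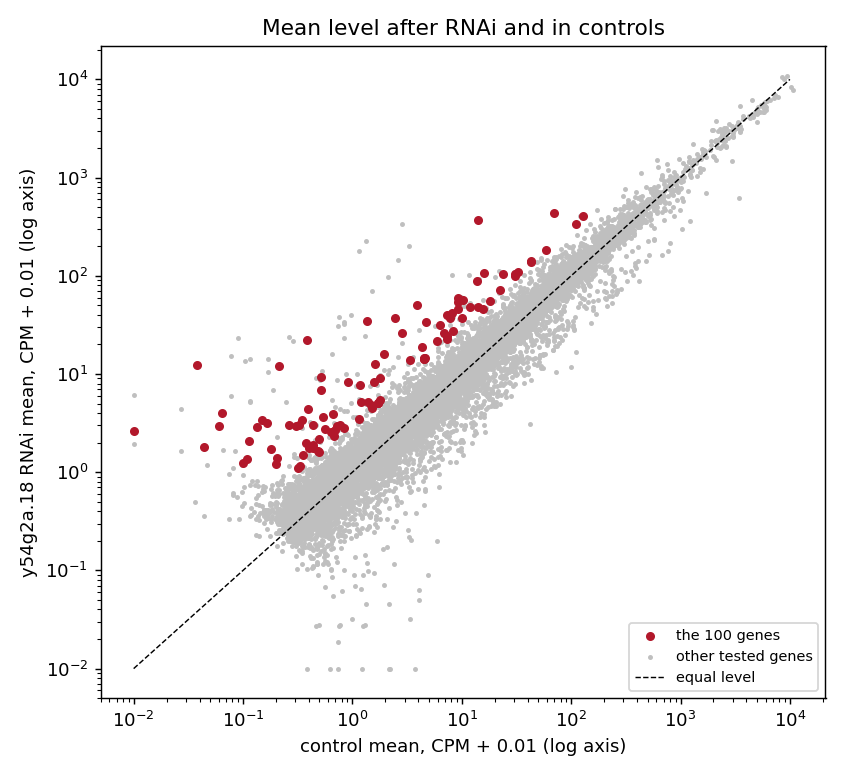
Each point is a gene, placed by its control mean (horizontal) and its RNAi mean (vertical) in CPM on log axes with 0.01 added; red points are the 100 genes, grey points the other tested genes, and the dashed line marks equal levels. The red points lie above the line by the rule that chose them, and 44 of the 100 had a control mean under 1 CPM while 19 had one over 10 CPM.

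Of the 12 genes with the highest ratios 9 averaged under 1 CPM in the control worms, and the exceptions were ZK105.1, ZK355.8 and E04D5.4. C33G8.13 had 12.3, 2.64 and 22 CPM in the RNAi libraries, from 461, 101 and 663 counts, against 0, 1 and 2 counts in the controls. The pooled ratio was 436, with a 95% exact counting interval of 149 to 2118. Its exons overlap those of srw-127 on the opposite strand, and since strand-specific counting is not stated, reads from there may belong to either.

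ZK355.3 stood at 15.8, 2.27 and 48.5 CPM after RNAi and at 0.411, 0.304 and 0.405 CPM in the controls. The groups do not overlap, but the RNAi libraries differ among themselves by 21.4-fold. F07G11.1 had 10.7, 2.01 and 23.2 CPM in RNAi libraries, against 0.257, 0.152 and 0.203 CPM in controls, and F17B5.4 had 4.50, 0.888 and 6.65 CPM, against 0.103, 0 and 0.0579 CPM. In each of these genes RNAi replicate 2 was the lowest RNAi library and replicate 3 the highest.

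T07G12.3 was the only member at 0 in all 3 controls. It had 92, 92 and 90 counts after RNAi, which is 2.46, 2.40 and 2.99 CPM. Against a floor of 3 counts over the control group its level was at least 97.6-fold higher, and with 1 RNAi library left out the lowest such bound was 91.6-fold. Unlike C33G8.13, it was almost even over the RNAi libraries, with a highest over lowest ratio of 1.25.

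F53F4.7 had 4.18, 1.88 and 4.19 CPM in RNAi libraries and 0.103, 0.203 and 0.116 CPM in controls. Y32B12B.8 had 3.43, 1.25 and 0.731 CPM, against 0.0514, 0.0507 and 0 CPM, and was the only one of the first 20 members whose lowest RNAi library was not replicate 2. Its counts in the controls were 2, 2 and 0, so its ratio rests on few reads. Of 104 values from 1 to 20 counts among the 100 genes, 92 were even, as were 71.5% of such values over all genes. If reads were counted in pairs, which was not tested, the counting interval of C33G8.13 is too narrow and the bound for T07G12.3 too high; both cover counting error only.

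Other members of high rank were well expressed after RNAi. ZK105.1 had 393, 260 and 463 CPM in the RNAi libraries, against 15.4, 13.9 and 13.4 CPM in the controls. The means differed by 26.1-fold, and the ratio of the highest to the lowest library was 1.78 after RNAi and 1.14 in the controls. E04D5.4 had 28.1, 22.9 and 60.5 CPM, against 2.78, 2.46 and 2.03 CPM, and B0024.4 had 43.9, 43.6 and 62.2 CPM, against 4.29, 4.48 and 2.84 CPM. B0024.4 was chosen for mention after its values were seen, as the next member by rank with over 10 CPM in every RNAi library.

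By CPM the highest members after RNAi were Y41C4A.32, Y68A4A.13, ZK105.1, Y53H1B.2, F42A10.7, C27B7.9, F13D12.3, Y47H10A.5, F48C1.11 and F57H12.6. Y41C4A.32 had 253, 557 and 507 CPM in RNAi libraries, against 71.5, 66.7 and 71.0 CPM in controls. Y68A4A.13 had 536, 169 and 516 CPM, against a mean of 127 ± 8.08 CPM (SD, n = 3) and a highest control of 135 CPM. Y53H1B.2 had 372, 341 and 301 CPM, against 111, 102 and 120 CPM. The RNAi libraries of Y53H1B.2 were close together, while replicate 1 was the low one for Y41C4A.32 and replicate 2 for Y68A4A.13.

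F48C1.11 had 134, 97.6 and 88.3 CPM after RNAi and 16.5, 15.1 and 16.1 CPM in controls, and F57H12.6 had 103, 120 and 92.3 CPM, against 31.1, 28 and 33.1 CPM. C08E3.1, next in order and chosen for mention after its values were seen, had 115, 87 and 113 CPM in RNAi libraries, against 20.3, 23.8 and 26.9 CPM in controls. F42A10.7, C27B7.9, F13D12.3 and Y47H10A.5 were between 3.09- and 3.36-fold higher in the means. Divided by the merged length of annotated exons, the mean RNAi level was highest for Y68A4A.13, at 1079 CPM per kb against 337 CPM per kb in controls, then for ZK105.1, at 611 against 23.4 CPM per kb. Y53H1B.2 followed with 464 against 152 CPM per kb and Y41C4A.32 with 441 against 70.1 CPM per kb.

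The RNAi libraries did not carry the difference equally. RNAi replicate 2 was the lowest RNAi library for 64 of the 100 genes, replicate 1 for 20 and replicate 3 for 16. Over all tested genes replicate 2 was the lowest for 36.4%, and over the 475 other genes called higher for 45.7%. Replicate 3 was the highest in 59 members, and in 38.4% of all tested genes. The ranking used the mean of the RNAi libraries and not their order, though a high mean can come from any library. With RNAi replicate 2 left out, the same rule kept 79 of the 100 genes, and the log2 ratio of C33G8.13 was then 7.08, against 6.61 with all libraries.

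In 43 members replicate 2 lay at least 2-fold under the mean of replicates 1 and 3, after adding 0.1 CPM. The same held in 5.18% of the tested genes and in 13 of the 1088 genes that met both conditions but ranked lower. A gene of the 1088 with a small ratio could not drop so far, since its replicate 2 had to lie above each control. Nothing is therefore read from the 13 beside the 43. Replicates 1 and 3 lay that far below the mean of the other 2 RNAi libraries in 3 and 4 members. By rank, the median log2 ratio of replicate 2 to the mean of replicates 1 and 3 was -2.53 for the first 20 genes, -0.84 for ranks 21 to 50 and -0.26 for ranks 51 to 100. Of the 44 genes with a control mean under 1 CPM 30 were among the 43, and of the other 56 genes 13 were. These shares are a description, since rank and drop are computed from the same RNAi values that chose the genes.

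Summed over the 43 genes, the level was 1082, 331 and 1194 CPM in the RNAi libraries and 191, 207 and 208 CPM in the controls. The other 57 summed to 2919, 3031 and 3313 CPM in the RNAi libraries and 687, 665 and 704 CPM in the controls. The choice of the 43 by their low replicate 2 fixes this contrast between the sums, so nothing is read from it. Among the RNAi libraries the targeted gene, Y54G2A.18, was highest in replicate 1 and lowest in replicate 3. Its part in the low replicate 2 of the 43 genes was not tested.

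Tissue markers also differed between the RNAi libraries. The 3 body wall muscle markers summed to 217, 534 and 1113 CPM in RNAi libraries and 351, 568 and 236 CPM in controls, and the 3 sperm markers to 148, 91.6 and 95.7 CPM in RNAi libraries and 72.6, 75.9 and 78.9 CPM in controls. The epidermal markers summed to 215, 359 and 174 CPM in RNAi libraries, against 1052, 948 and 1084 CPM in controls, so RNAi replicate 2 was the least reduced there. The sums of the other tissues, in RNAi libraries and then in controls, were 70.9 to 84.8 and 63.3 to 67.5 CPM for the intestine, 463 to 599 and 429 to 475 CPM for neurons, and 176 to 288 and 270 to 375 CPM for the germline. Oocyte and embryo markers summed to 339 to 433 CPM in RNAi libraries and 416 to 541 CPM in controls. Pharynx markers summed to 11.3, 18.9 and 47 CPM in RNAi libraries and 38.9, 65.6 and 25.4 CPM in controls. Sums for muscle, pharynx, germline, and oocytes and embryos all rose from RNAi replicate 1 to 3. In the controls they were highest in replicate 2 and lowest in replicate 3. With 6.1 to 6.46 kb of exons, unc-54, myo-3, myo-1 and myo-2 stood in this order. So did gld-1 and oma-1, with 2.22 and 1.8 kb, but not glh-1 and egg-1, with 2.77 and 1.79 kb. The part of transcript length in this order was not tested. The part of these markers in the low replicate 2 was not tested.

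Among named cuticle collagens the low replicate was seen in those called higher. The 22 collagens called higher summed to 2016, 803 and 2538 CPM in the RNAi libraries and 203, 195 and 213 CPM in the controls, and in 18 of them replicate 2 was at least 2-fold below the other RNAi libraries' mean. Such a drop was present in 5.18% of all tested genes. The 18 had log2 ratios of RNAi to control means from 2.49 to 7.29. Those without the drop, col-89, col-154, col-169 and col-176, had 2.26, 1.12, 0.89 and 1.19, which left less room for it. The 18 of 22 are therefore a description only. Over the whole collagen list the sums were 17566, 18246 and 15225 CPM in the RNAi libraries and 24953, 22627 and 25902 CPM in the controls, with replicate 2 the highest RNAi library. The bound of 2-fold was chosen after the values were seen. Whether the low replicate 2 of the 43 genes and of the collagens has a common source was not tested.

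**Figure D3:**
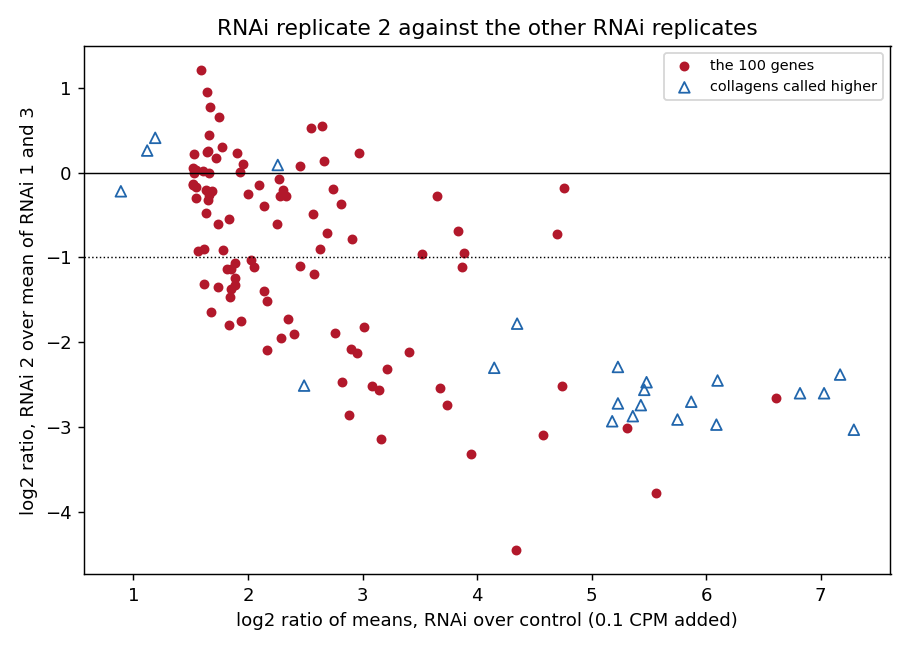
The horizontal axis is the log2 ratio of RNAi to control means with 0.1 CPM added and the vertical axis the log2 ratio of RNAi 2 to the mean of RNAi 1 and 3; red points are the 100 genes and blue triangles the 22 collagens called higher. Below the dotted line at -1 lie 43 of the 100 genes and 18 of the collagens.

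The widest spread among RNAi libraries was that of Y57E12B.1, with 2.25, 0.104 and 6.51 CPM. Its lowest RNAi value, from 4 counts, was next to the highest control value, 0.101 CPM, also from 4 counts, and the gene entered the set by that margin. ZK355.3 and F56D6.8 followed, with ratios of the highest to the lowest RNAi library of 21.4 and 16.8. The narrowest spreads were those of F49H12.2, R07B1.8 and ZK1290.10, at 1.15, 1.16 and 1.19. R07B1.8 had 1.63, 1.78 and 1.89 CPM after RNAi, against 0.411, 0.355 and 0.405 CPM in controls. Over the 100 genes the median coefficient of variation was 40.4% in the RNAi group and 18.6% in the controls, and over all tested genes 23.1% and 11%. Expression levels were not matched between these sets, and the coefficient of variation also depends on the number of counts.

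Several members lie beside each other in the genome. With at most 1 protein-coding gene between them in RefSeq's order, 21 of the 100 genes fell into 10 neighbourhoods, 9 of 2 genes and 1 of 3. In 5 of these the members were directly adjacent. In 9 of the 10 all members had the same lowest RNAi library. Since replicate 2 was the lowest for 64 of the 100 genes, and no share was computed for other genes, nothing is read from these counts.

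ZK355.8, next to ZK355.3 on chromosome II and on the other strand, had 23.4, 5.61 and 73.8 CPM in RNAi libraries and 1.44, 1.19 and 1.39 CPM in controls. Both genes of this pair were lowest in replicate 2 and highest in replicate 3. F56D6.8 and F56D6.9, adjacent on chromosome IV and on opposite strands, were instead highest in replicate 1. F56D6.8 had 20.6, 1.23 and 5.81 CPM, against 0.514, 0.329 and 0.666 CPM, and F56D6.9 had 18.2, 1.93 and 4.95 CPM, against 0.771, 0.760 and 1.16 CPM. Exons of F56D6.9 overlap those of oac-21 on the same strand, so reads of the overlap cannot be told apart.

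On the other side of F56D6.8 lies dct-8, which has a symbol and so could not be a member. It rose, with 30.3, 3.29 and 14.2 CPM in RNAi libraries and 0.411, 0.709 and 0.810 CPM in controls (log2 fold change 4.61, standard error 0.77, adjusted p = 0.00747 by edgeR). Its RNAi libraries stood in the same order as those of F56D6.8 and F56D6.9.

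On chromosome V, Y57E12B.4 had 2.41, 0.679 and 6.45 CPM in RNAi libraries, against 0.154, 0.253 and 0.0579 CPM in controls, beside Y57E12B.1. The gene on the other side of Y57E12B.1, Y57E12B.11, had 5.55, 0.731 and 10.2 CPM in RNAi libraries and 0.874, 0.507 and 0.521 CPM in controls. It was kept out because one control exceeded RNAi replicate 2. K08D9.2 and K08D9.6, named gtnt-35 and gtnt-36 in RefSeq, had 2.60, 0.835 and 5.38 CPM and 3.00, 1.20 and 6.01 CPM after RNAi, with controls from 0.116 to 0.405 CPM in both genes.

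The T20D4 neighbourhood on chromosome V held 3 members on the same strand. T20D4.12 had 69.9, 22.8 and 28.2 CPM in RNAi libraries, against 6.84, 8.46 and 6.66 CPM in controls, and T20D4.10 had 73.7, 30.4 and 41 CPM, against 15.5, 13.9 and 12.6 CPM. T20D4.7 had 60.6, 93.3 and 109 CPM, against 13, 13.5 and 14.9 CPM. The first pair was highest in replicate 1, while T20D4.7 was lowest there. Between them lies T20D4.11, which rose less, with a log2 fold change of 1.00 (standard error 0.19, adjusted p = 0.0146 by edgeR), from 107, 65.1 and 81.2 CPM in RNAi libraries and 41.7, 41.7 and 41.2 CPM in controls.

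B0507.7 and B0507.8, also on chromosome V, flank ddn-1, and this was a neighbourhood without the low replicate 2. B0507.8 had 18.8, 28.8 and 30.5 CPM in RNAi libraries, against 7.04, 7.37 and 6.37 CPM in controls, and B0507.7 had 3.91, 5.59 and 5.65 CPM, against 2.31, 1.62 and 1.13 CPM. ddn-1 also rose, with 26, 47.5 and 39.9 CPM in RNAi libraries and 8.92, 8.66 and 7.21 CPM in controls (log2 fold change 2.17, standard error 0.24, adjusted p = 0.00139 by edgeR). ZK896.1 and ZK896.4 on chromosome IV were likewise lowest in replicate 1, but the gene between them, ZK896.5, was at 4.47, 5.95 and 6.61 CPM in RNAi libraries and 7.12, 8.43 and 6.57 CPM in controls. The gene between 2 members was thus not higher in every case.

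The other neighbourhoods were C27D9.2 with F26G1.3 on chromosome II, Y54F10BM.21 with Y54F10BM.22 on chromosome III, and F32G8.2 with F32G8.3 on chromosome V, all lowest in replicate 2. Y54F10BM.22 had 62.8, 42 and 75.1 CPM in RNAi libraries, against 10.6, 8.31 and 8.80 CPM in controls. F32G8.2 and F32G8.3 overlap on opposite strands, so their reads may be shared.

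**Figure D4:**
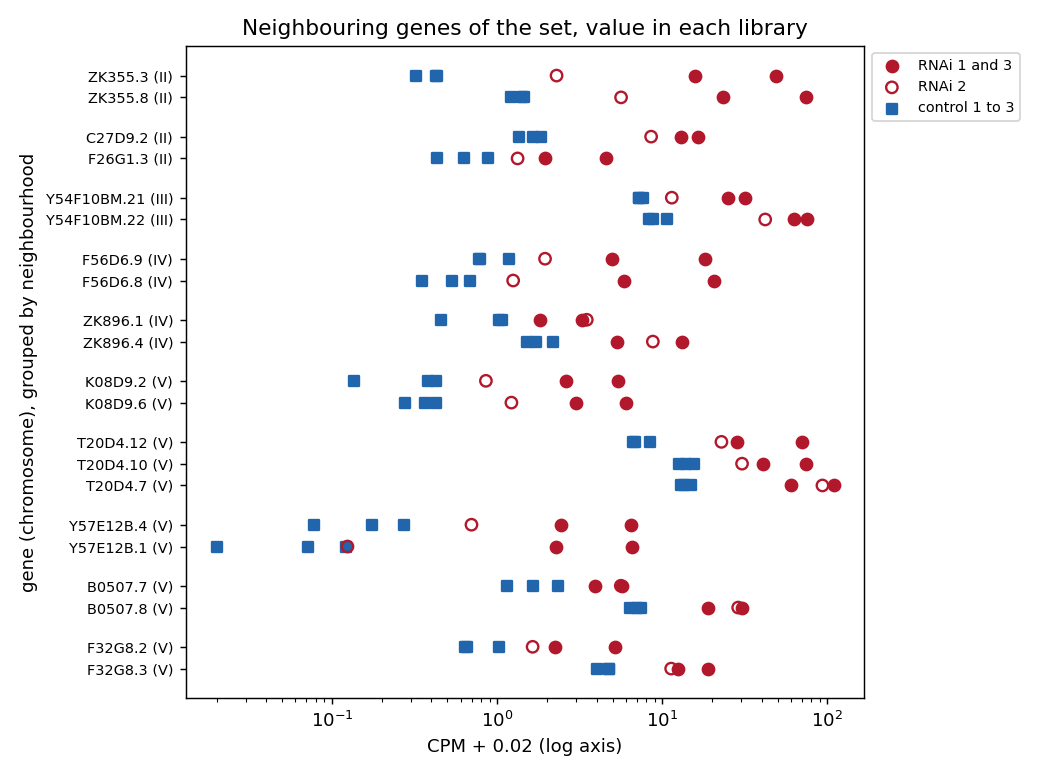
Each row is a member that has another member as a neighbour, grouped by neighbourhood with its chromosome in brackets; red circles are RNAi libraries (hollow for RNAi 2), blue squares controls, and the horizontal axis is CPM on a log scale with 0.02 added. RNAi 2 is the leftmost circle in the pairs of ZK355, F56D6, K08D9 and Y57E12B, and RNAi 1 in those of ZK896 and B0507.

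Genes next to members were looked at after the members had been chosen. Of 181 protein-coding genes directly next to a member and not members, 116 were tested, 20 rose and 9 fell by edgeR. Of the 20, 11 have sequence names and were left out by the rule that chose the members on these same values, and 9 have symbols. The 20 are 17.2% of those tested, against 3.97% of all tested genes called higher. The 9 of 116 that fell stand beside 5.01% of all tested genes called lower. The median log2 fold change was 0.35 for the 116 and 0.02 for all tested genes. The count fell to 5, 6 and 7 when control replicate 1, 2 or 3 was left out. Among the 20 were nlp-27, an antimicrobial peptide gene of the epidermis, next to K09D9.9, with 1140, 966 and 1232 CPM in RNAi libraries and 395, 432 and 468 CPM in controls, and C08E3.13 next to C08E3.1, with 458, 406 and 548 CPM, against 158, 155 and 204 CPM. C08E3.13 and C08E3.1 have coding regions of the same length, 78 codons, as do Y57E12B.11 and Y57E12B.1, and whether such pairs share reads was not tested. These neighbours were chosen for mention after their values were seen. Neighbouring genes can share reads where their exons overlap, and 19 of the 100 members overlap another gene, 14 of them on the opposite strand only, against 25.8% of the 6071 other tested sequence-named protein-coding genes.

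The chromosomes contributed unequally. Chromosome V held 38 of the 100 genes, IV and II 18 each, I 10, and III and X 8 each. Of 6071 other tested sequence-named protein-coding genes 21.9% lie on V, 15.7% on IV, 17.6% on II, 15.1% on I, 13.7% on III and 16% on X. The genes on V include C33G8.13, F07G11.1 and ZK105.1, and 5 of the 10 neighbourhoods. Neighbouring genes are not independent, and no test was made.

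All but 1 of the members are annotated as protein-coding. The exception, C34E11.20, is a small nucleolar RNA on the X chromosome, with 0.67, 0.94 and 1.69 CPM in RNAi libraries and 0.36, 0.253 and 0.318 CPM in controls. The coding regions of the 99 others were short: their median was 194 codons, against 260 in the 6071 other sequence-named genes. Under 100 codons were 21 of the 99, against 11.4% of the other genes, and under 200 codons 53 of the 99, against 37%. A coding transcript of 1 or 2 exons was annotated for 28.3% of the members and 15.4% of the other genes.

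The shortest was F13E9.19, with 44 codons, and the longest K09E2.1, with 907. Members with the low replicate 2 had a median of 199 codons and the other protein-coding members 189. The 10 members with the highest CPM after RNAi ranged widely: Y68A4A.13 has 67 codons, C27B7.9 90, F48C1.11 165, ZK105.1 186, F42A10.7 187, F57H12.6 205, Y53H1B.2 222, F13D12.3 245, Y41C4A.32 291 and Y47H10A.5 331. Sequences of the members were not used here.

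**Figure D5:**
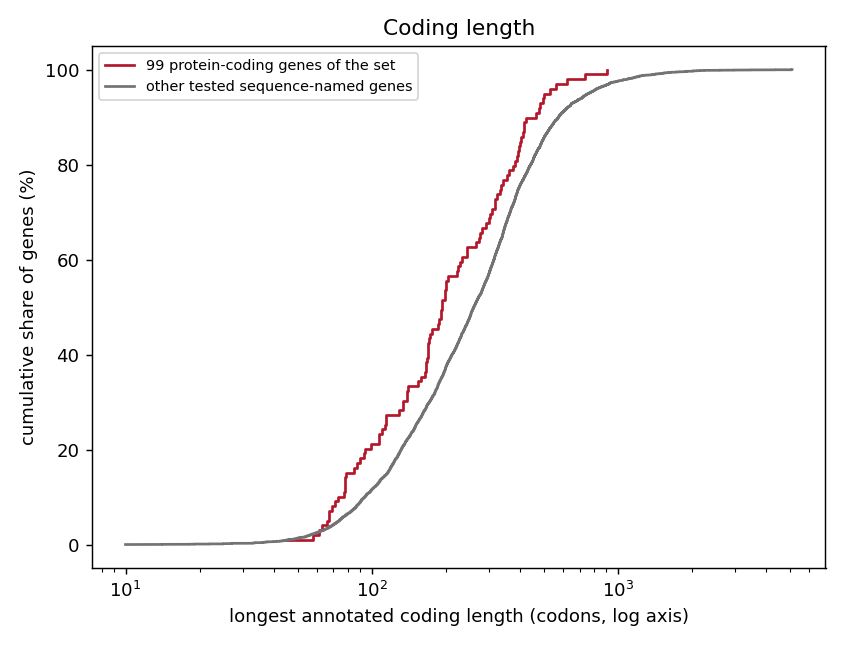
The curves give the cumulative share of genes (vertical, in percent) up to a coding length (horizontal, in codons on a log axis), in red for the 99 protein-coding members and in grey for the other tested sequence-named protein-coding genes. The red curve lies to the left, with a median of 194 against 260 codons.

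Named genes of the cuticle moved in both directions in the same libraries. Of 130 tested cuticle collagens 22 rose and 46 fell, and of 46 hedgehog-related genes, a nematode family tied to the cuticle, 10 rose and 18 fell, by edgeR at an adjusted p of 0.05. Over all tested genes 3.97% were called higher and 5.01% lower. The median log2 fold change was -0.69 for the collagens and -0.81 for the hedgehog-related genes, against 0.02 for all tested genes. The epidermal markers rol-6 and dpy-7, both cuticle collagens, fell, with 178 ± 69.0 and 71.5 ± 29.2 CPM in RNAi libraries and 768 ± 47.4 and 260 ± 24.0 CPM in controls (SD, n = 3 each; adjusted p = 0.00267 and 0.00447 by edgeR). col-43, a collagen, rose to 179 ± 123 CPM in RNAi libraries, against 1.15 ± 0.222 CPM in controls (adjusted p = 0.000835 by edgeR), and grl-20, of the ground-like family, to 32.5 ± 24.9 CPM, against 0.822 ± 0.353 CPM (adjusted p = 0.00335 by edgeR). nas-10, an astacin metalloprotease, rose to 10.8 ± 1.21 CPM, against 0.517 ± 0.134 CPM (adjusted p = 0.000307 by edgeR), and cut-1, a cuticlin, to 14.3 ± 15.2 CPM, against 0.160 ± 0.104 CPM (adjusted p = 0.00605 by edgeR).

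The counts of the other lists stand beside the same shares over all tested genes, 3.97% higher and 5.01% lower, and several, such as 1 of 31, 2 of 29 and 8 of 110, are not far from them. Astacins had 2 higher and 6 lower of 25 tested, cuticlins and zona pellucida genes 1 and 5 of 31, molting genes 1 and 1 of 16, and prion-like genes of the pharyngeal cuticle 2 and 5 of 29. The intracellular pathogen response had 9 higher and 0 lower of 30, with 15 of the 30 at an unadjusted p under 0.05 and 10 called by DESeq2. Its median log2 fold change was 0.56, and the medians were -0.46 for astacins, -0.40 for cuticlins, 0.19 for molting genes and -0.22 for prion-like genes. C-type lectins had 10 higher and 18 lower of 144, and neuropeptides and insulins 9 and 8 of 110, with medians of 0.03 and 0.10. The 9 include nlp-27, described above as an antimicrobial peptide gene. Of 61 sperm genes 1 rose and 0 fell, with 20 at an unadjusted p under 0.05 and 7 called by DESeq2. Of 18 oocyte and embryo genes 0 were called in edgeR and DESeq2, with 2 at an unadjusted p under 0.05, and of 5 vitellogenins 0, with 0 at an unadjusted p under 0.05. The vitellogenins summed to 846, 1730 and 8060 CPM in RNAi libraries and 3118, 5194 and 1941 CPM in controls. With libraries this far apart, their 0 calls cannot be read as an unchanged level. The medians were 0.50 for sperm genes, -0.28 for oocyte and embryo genes and 0.40 for vitellogenins. Without control replicate 1, 2 or 3 fewer genes of most lists were called: the lectins called higher numbered 4, 6 and 3, the neuropeptides called higher 5, 6 and 6 and called lower 3, 2 and 2, the hedgehog-related genes called higher 6, 6 and 7, and the astacins and the cuticlins called lower 2 each time. The molting and prion-like genes called higher were then 0, and the prion-like genes called lower 3, 2 and 3. The collagens called lower numbered 31, 37 and 31 without control replicate 1, 2 or 3, and 70 without RNAi replicate 1. Without RNAi replicate 3 the neuropeptides called higher numbered 14 and those called lower 4. The sperm genes called higher numbered 0 without any 1 control, and 4, 2 and 6 without RNAi replicate 1, 2 or 3.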

How the data were processed

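Polyadenylated RNA of whole worms was counted per gene. The authors deposited raw counts with no normalization; HISAT2 2.2.1 and featureCounts 1.28.1 are named without role, per the submitters' processing notes. No source used here gives the build, annotation or strand setting, so coordinates are left out. The 12 entries carrying dates in place of names (at most 0.0247% of a library) were left out. The rpoa-49 table held 418 counts in all under 43236 names, 0.0278% of them shared, and could not be tested.

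CPM was computed on library totals. edgeR 4.0.16 in R 4.3.3 fitted the group over the 6 libraries (filterByExpr, minimum count 10 and total 15, TMM), and p-values were adjusted by Benjamini-Hochberg over every gene in the fit; the standard error is the log2 fold change over the square root of F. DESeq2 1.42.0, other scalings, no filter, a replicate block and the omission of each library were alternatives.

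Replicates were compared before averaging, and pairs within a group differed by a chi-square of 24.1 to 183 per degree of freedom, far above sampling noise. Names, neighbours and transcript numbers came from RefSeq WBcel235, and exons and coding lengths from Ensembl release 115, in which all 100 genes were found. Protein and promoter features had been planned and were not used here, as no sequences were at hand.

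The members and lists were chosen with earlier results of these data known. Genes were named by rule: the 12 highest ratios, the 10 highest CPM, the 3 on each side of the limit, neighbouring members, controls all at 0, the 3 widest and the 3 narrowest RNAi spreads, and the list genes with the smallest p, of which some are given. Intervals and floors cover counting error only.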

Additional observations from a re-analysis of the deposited data

How the results depend on the processing

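All 100 genes were retained with TMM-scaled CPM, 94 and 78 with 0.01 or 1 CPM added, and 59 with a minimum mean of 5 CPM, where low genes cannot enter. Leaving out each library in turn kept 79 to 95, and 58 genes were in all 6 of these sets. In edgeR 59 to 91 of the members were called when 1 library was left out (60 and 59 without control replicates 2 and 3), 89 with the replicate block and 57 in every setting run. Over all genes the calls numbered 646 to 2097 with 1 library left out and 955 with the replicate block, against 1283; neighbours called higher numbered 5 to 23 and 14, against 20, in fits chosen after seeing the data. Replicate numbers gave no clear pairing of the samples: deviations of same-numbered libraries correlated at 0.0074, 0.0454 and -0.365. Those of differently numbered libraries ran from -0.418, for RNAi 1 with control 2, to 0.403, for RNAi 3 with control 2. RNAi 1 with control 3 stood at 0.394, and the source of these correlations was not tested. With 3 libraries per group the correlations depend on each other and cannot show whether the samples were paired. The log2 fold change of Y54G2A.18 ran from -1.83 to -1.28. Replicate 2 was lowest for 63 members and 2-fold lower for 41 with TMM-scaled CPM, a setting chosen after seeing the data. Of 189 alternative ratios of the genes with the highest ratio or CPM 180 moved by less than the RNAi spread and 9 by more, all with another amount added, and none reversed.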

Other observations

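F45D11.16, a member chosen here after its values were seen, has a neighbour of the same annotated length, F45D11.15, with 1839 bases in RefSeq for both, and Ensembl gives both the same name. F45D11.16 had 70, 19 and 62 counts in RNAi libraries and 13, 16 and 10 in controls. F45D11.15 had 0, 0 and 2 counts in RNAi libraries and 0, 110 and 0 in controls, so nearly all of its counts came from control replicate 2. No source used here says how reads shared between such copies were counted.

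Y51B9A.8 was the only member at least 2-fold higher in RNAi replicate 2 than in the mean of the other RNAi libraries, with 1.23, 2.71 and 0.997 CPM in RNAi libraries and 0.822, 0.152 and 0.463 CPM in controls. F22E5.6, at rank 23, was the highest-ranked member whose lowest RNAi library was replicate 1.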
